A study of Mus musculus with 9 samples.

Results

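DNA replication and nucleotide supply genes were described across 9 liver libraries of db/db mice. The set holds 43 genes of the 28517 in the deposited table, taken by gene symbol: 10 of origin licensing, 6 of helicase activation, 9 of the clamp, clamp loader and single-strand binding protein, 8 of the polymerases and primase, 2 of flap removal and ligation, 4 of deoxynucleotide synthesis, and 4 of chromatin assembly and maintenance methylation. All 43 symbols were found once each. The symbols were listed by function, with earlier results of these data known.

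The mice of every group carried the db/db genotype, which leaves them without a working leptin receptor, obese and diabetic. They had been treated for 12 weeks with FGF19WT, with FGF19ΔKLB or with PBS as vehicle, and each group holds 3 libraries of total liver RNA. FGF19 is an intestinal hormone that acts on hepatocytes through FGFR4 and β-klotho, and the series title concerns its tumour risk and how it pairs receptors. The labels do not state the sequence change of FGF19ΔKLB, whose columns carry the code F19_HBS, nor the age or sex of the mice, nor whether each library is a separate animal. The p-values below therefore measure the spread between libraries only.

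Before a cell divides, ORC, Cdc6 and Cdt1 load MCM2-7 helicases on origins in G1, and Mcm10, Cdc45 and GINS turn them into moving forks in S phase. PCNA and its loader RFC hold the polymerases on DNA, RPA covers single strands, Fen1 and Lig1 join Okazaki fragments, and ribonucleotide reductase, Tyms and Tk1 supply deoxynucleotides. Many of these genes are known E2F targets that are low in resting cells, and most hepatocytes of an adult liver rest. Several, such as PCNA, RPA, RFC and the polymerase δ subunits, also serve DNA repair. The tissue was not sorted, so more cycling cells and more RNA per cell cannot be told apart.

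Count totals ran from 65.1 to 73.3 M per library, for about 16.3 to 18.3 M read pairs. FGF19WT libraries 2 and 3 stood apart from all others on the first principal component of all genes, at 129.8 and 169.9, with the other 7 between −64 and −7.85. In these 2 libraries glutamine synthetase, Glul, reached 14760 and 12680 CPM, against 185 to 999.6 CPM in the other 7. The urea cycle enzyme Cps1 had 40.1 and 32.9 CPM there, against 1155 to 2838 CPM in the other 7.

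Promoters with the E2F motif are shown because many of these genes are known E2F targets. RefSeq promoters of GRCm38.p6, from 250 bases before to 50 bases after the start of a gene, were matched for 36 of the 43 members. The letters TTTCCCGC, TTTCGCGC, TTTGCCGC or TTTGGCGC, on either strand, were in the promoters of 15 of these 36 (41.7%) and of 562 of 14615 genes with a promoter (3.85%). The letters can overlap when both strands hold them. The 5 promoters below belong to the members with the letters that had the smallest p in FGF19ΔKLB against vehicle, and capitals mark the letters on either strand. They lie at chr1:128359656-128359955 (minus strand) for Mcm6, chr8:75109259-75109558 (plus strand) for Mcm5, chr7:44548766-44549065 (minus strand) for Pold1, chr11:98907901-98908200 (plus strand) for Cdc6 and chr5:138171834-138172133 (minus strand) for Mcm7.
Mcm6: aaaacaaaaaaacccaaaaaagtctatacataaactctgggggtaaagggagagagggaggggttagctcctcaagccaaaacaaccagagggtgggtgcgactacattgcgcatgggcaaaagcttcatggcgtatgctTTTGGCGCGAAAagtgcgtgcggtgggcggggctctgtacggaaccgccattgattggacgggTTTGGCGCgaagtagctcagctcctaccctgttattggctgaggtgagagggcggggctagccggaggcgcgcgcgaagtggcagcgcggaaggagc
Mcm5: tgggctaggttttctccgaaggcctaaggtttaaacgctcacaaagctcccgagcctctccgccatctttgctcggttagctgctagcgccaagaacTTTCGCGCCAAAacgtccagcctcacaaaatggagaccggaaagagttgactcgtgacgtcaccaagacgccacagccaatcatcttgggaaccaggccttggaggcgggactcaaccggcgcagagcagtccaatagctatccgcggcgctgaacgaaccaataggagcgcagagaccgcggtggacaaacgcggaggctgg
Pold1: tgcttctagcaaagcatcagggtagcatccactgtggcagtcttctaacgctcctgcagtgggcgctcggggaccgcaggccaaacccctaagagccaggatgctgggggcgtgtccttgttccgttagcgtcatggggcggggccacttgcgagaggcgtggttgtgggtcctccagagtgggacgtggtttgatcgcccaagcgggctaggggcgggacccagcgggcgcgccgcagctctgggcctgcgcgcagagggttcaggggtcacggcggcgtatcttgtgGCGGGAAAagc
Cdc6: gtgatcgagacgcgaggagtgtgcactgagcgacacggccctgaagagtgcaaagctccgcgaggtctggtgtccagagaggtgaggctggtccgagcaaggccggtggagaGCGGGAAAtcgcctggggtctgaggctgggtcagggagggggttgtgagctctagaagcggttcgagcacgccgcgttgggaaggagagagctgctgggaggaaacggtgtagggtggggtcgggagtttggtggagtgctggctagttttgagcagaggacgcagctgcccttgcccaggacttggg
Mcm7: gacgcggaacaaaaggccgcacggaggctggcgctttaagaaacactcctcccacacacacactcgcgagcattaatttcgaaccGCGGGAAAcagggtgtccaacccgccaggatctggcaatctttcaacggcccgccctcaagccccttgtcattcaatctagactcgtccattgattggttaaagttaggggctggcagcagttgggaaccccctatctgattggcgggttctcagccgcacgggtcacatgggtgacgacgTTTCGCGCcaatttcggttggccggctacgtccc

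The Mcm6 promoter holds the letters 3 times, the first at −110 and the last at −47 from the start. The Mcm5 promoter holds them 2 times on opposite strands, at −153 and −149. The CCAAT box, letters CCAAT, was in 24 of the 36 members (66.7%) and in 41.7% of all genes with a promoter. The GC box, letters GGGCGG, was in 28 of 36 (77.8%) and in 57.6%. A match describes letters only, and binding was not measured.

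Levels are given per length, in FPKM as the authors computed it, where genes are compared with each other. The median member had a mean of 1.03 FPKM over the 9 libraries, and 23 of 43 reached 1 FPKM. Pcna, the sliding clamp, had the highest mean at 9.76 FPKM, followed by the GINS subunit Gins4 at 8.86 FPKM and the polymerase δ subunit Pold2 at 4.55 FPKM. Pcna and Gins4 did not separate, since their libraries spanned 7.54 to 11 and 7.96 to 10.5 FPKM. The lowest means were those of the origin recognition subunit Orc1 at 0.0261 FPKM, the licensing factor Cdc6 at 0.0561 FPKM and the polymerase ε subunit Pole2 at 0.0572 FPKM. Orc1, Pole2 and the methylation cofactor Uhrf1 fell under 12 counts, about 3 read pairs, in at least 1 library, so their values are read with counting error in mind.

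**Figure D1:**
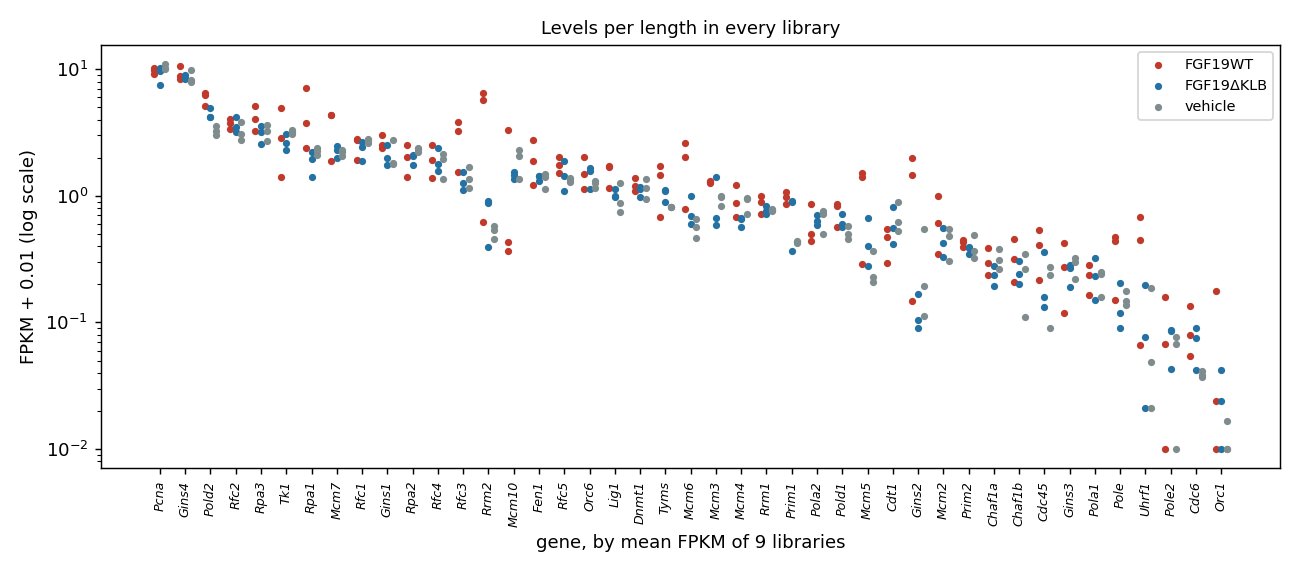
Level of each of the 43 genes in FPKM plus 0.01 (log axis), 1 point per library, ordered from left to right by the mean of 9 libraries. Red points are FGF19WT, blue points FGF19ΔKLB and grey points vehicle; Pcna and Gins4 stand near 10 FPKM, and Orc1, Cdc6 and Pole2 lie under 0.2 FPKM in every library.

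The 6 subunits of the MCM2-7 ring were not at equal levels. Mcm7 was the highest subunit in all 9 libraries, at 1.87 to 4.34 FPKM, and the lowest was Mcm5 in 6 libraries and Mcm2 in 3. The summed level of the 6 was 5.37, 11.2 and 11 FPKM in FGF19WT libraries, 4.69, 6.72 and 4.68 FPKM in FGF19ΔKLB libraries, and 5.21, 5.23 and 5.29 FPKM in vehicle libraries. FGF19WT libraries 2 and 3 were the highest and FGF19WT library 1 lay with the other groups.

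FGF19WT against vehicle asks whether 12 weeks of the hormone changed the replication genes of the liver. None of them passed the test, while most leaned upward and a subset was several times higher in FGF19WT libraries 2 and 3. Of 42 members tested, 33 had positive log2 fold changes, with a median of 0.40, against −0.00 over all genes. The ribonucleotide reductase subunit Rrm2 had the largest estimate at 7.9-fold, followed by Uhrf1 at 4.71-fold, the GINS subunit Gins2 at 4.19-fold and the helicase subunits Mcm5 and Mcm6 at 3.87-fold and 3.12-fold. This order rests on single libraries: Uhrf1 was at 14.3-fold without vehicle library 2 and at 2.91-fold without FGF19WT library 3, and Gins2 was at 7.43-fold without vehicle library 3 and at 2.67-fold without FGF19WT library 3. Leaving out each library in turn put the log2 fold change of Rrm2 between 2.49 and 3.48. By edgeR's quasi-likelihood test with Benjamini-Hochberg adjustment 0 of 42 members were called, with 1 of 17430 genes (0.00574%) called in all. The smallest adjusted p of a member was 0.277. An unadjusted p under 0.05 was reached by 8 members, all higher, where 9.24% of all genes reached it higher and 5.24% lower. These were Mcm5, Mcm6, Rfc3, Rpa1, Prim1, Pole, Pold2 and Rrm2. The 95% interval lay within a 2-fold change in either direction for 17 of 42 members, so for the others a change of 2-fold or more lay within the interval. DESeq2 called 4 of 42 members higher, Pold2, Rrm2, Prim1 and Mcm6, where 4.18% of all genes were called higher and 6.38% in either direction. The fit over 9 libraries and the fit with a replicate block called 0 members, with 0.11% and 0% of all genes called.

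**Figure D2:**
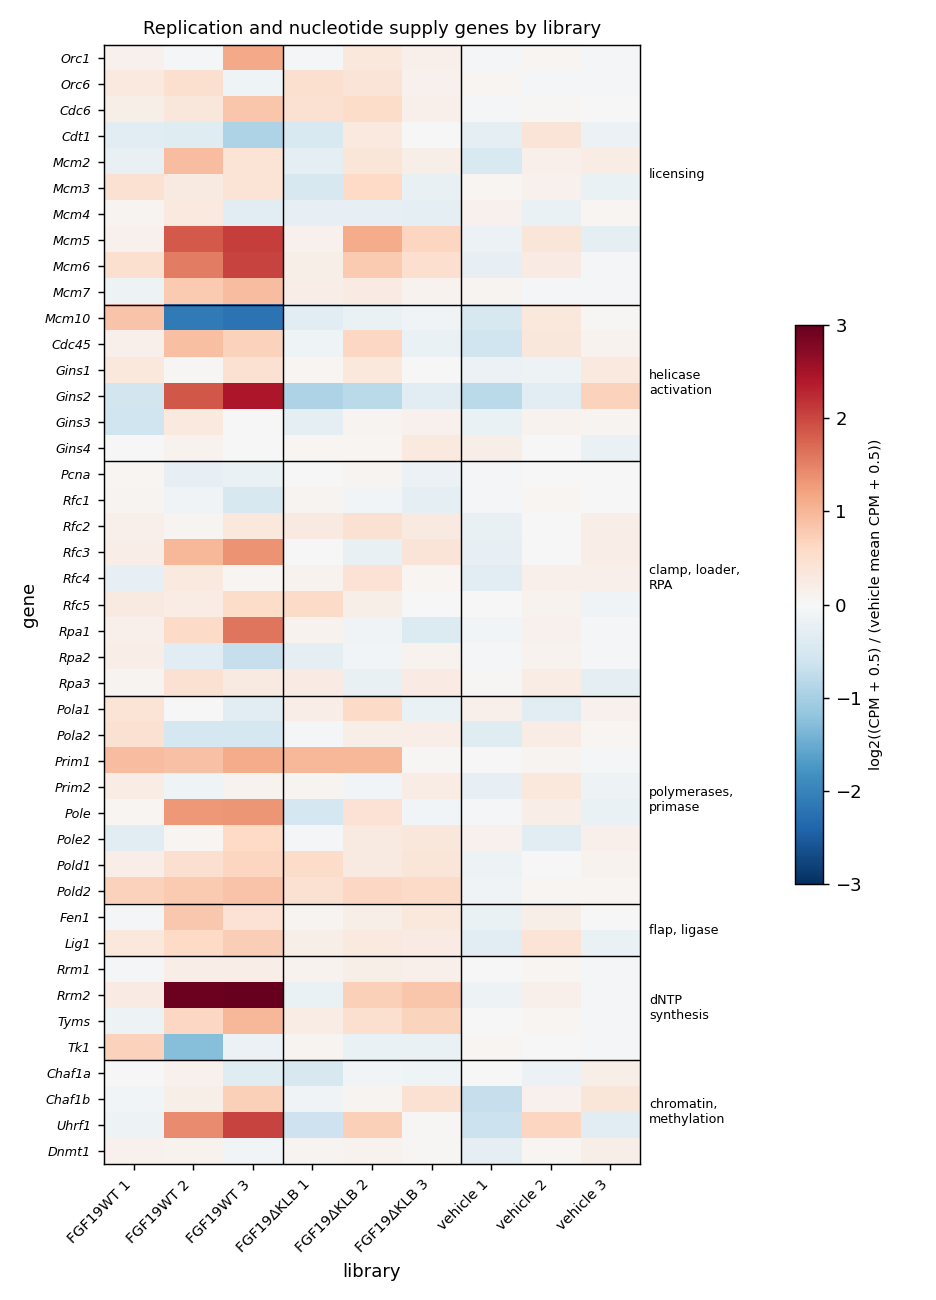
Level of all 43 genes by library as log2 of (CPM + 0.5) over the vehicle mean plus 0.5, with red for higher and blue for lower and colours capped at 3 in either direction. Rows are grouped by role; FGF19WT libraries 2 and 3 carry the strongest red, in Rrm2, Gins2, Mcm5, Mcm6 and Uhrf1, and the strongest blue, in Mcm10.

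In FGF19ΔKLB against vehicle 0 of 42 members were called as well, although this comparison called 292 of 17340 genes (1.68%), 0.894% higher and 0.79% lower. The members had a median log2 fold change of 0.15, against −0.00 over all genes, and 30 of 42 were positive in CPM, while on log2(FPKM + 1) 7 of the 18 members tested at a minimum of 1 FPKM were positive, with a median of −0.02 beside −0.10 over all genes. The largest estimates above 1 were those of Cdc6 at 2.21-fold, Mcm5 at 1.87-fold and the primase subunit Prim1 at 1.86-fold. On the other side, Gins2 had a log2 fold change of −1.06 (−2.52 to 0.40, edgeR adjusted p = 0.438), which was −0.22 without vehicle library 3. An unadjusted p under 0.05 was reached by 4 members, Pold2, Tyms, Prim1 and Rfc2, all higher, where 8.47% of all genes reached it higher and 8.85% lower. The smallest adjusted p was that of Pold2 at 0.0929 by edgeR, and DESeq2 called Pold2 alone of the 41 members to which it gave an adjusted p (adjusted p = 0.00823), where 4.07% of all genes were called higher and 8.46% in either direction. The fit over 9 libraries and the fit with a replicate block called 0 members here too, with 0.011% and 0.594% of all genes called. The 95% interval lay within 2-fold for 31 of 42 members. More members were thus bounded within 2-fold here than with FGF19WT.

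FGF19ΔKLB was also set against FGF19WT. Again 0 of 42 members were called, with 1 of 17123 genes (0.00584%) called in all. The median log2 fold change was −0.18, against −0.00 over all genes, and 15 of 42 members were positive. An unadjusted p under 0.05 was reached by Gins2, Rrm2, Rpa1 and Rfc3, all lower in FGF19ΔKLB, where 6.1% of all genes reached it lower and 2.7% higher. The smallest adjusted p was 0.512 by edgeR, for Gins2. DESeq2 called Gins2 lower (adjusted p = 0.0141), where 2.64% of all genes were called lower and 3.48% in either direction. The interval lay within 2-fold for 18 of 42 members. FGF19WT against vehicle and FGF19ΔKLB against vehicle share the vehicle libraries, so their lists of positive members are not independent.

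**Figure D3:**
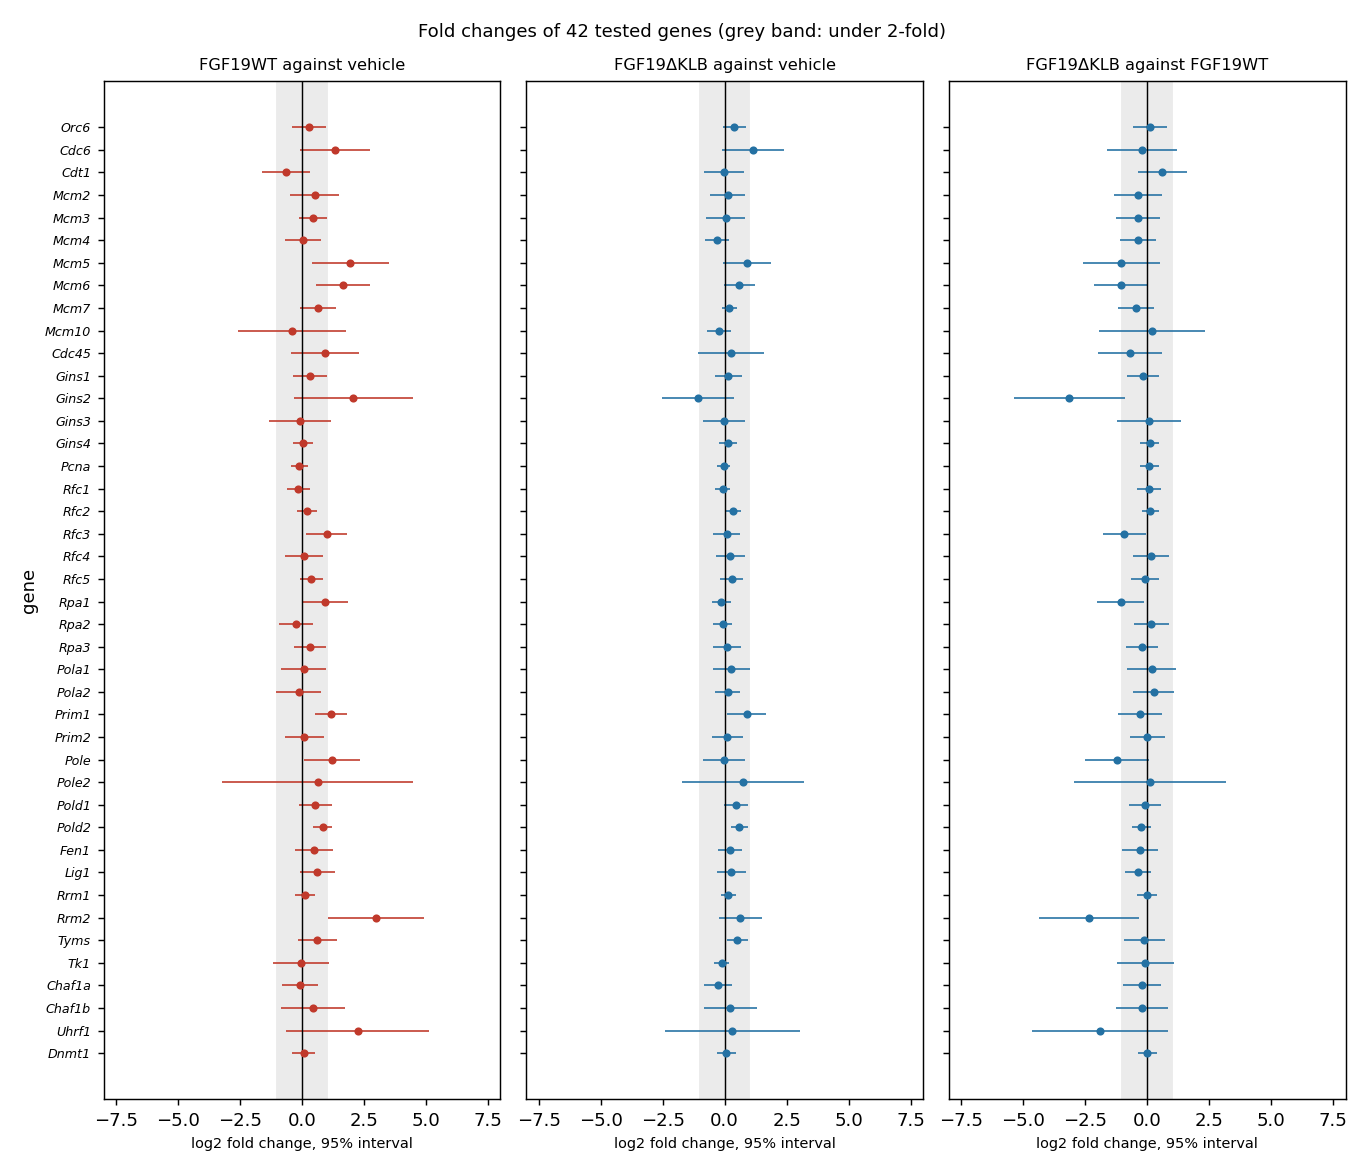
Log2 fold change (edgeR, point) with its 95% interval (line) of the 42 tested genes in the 3 comparisons, with a grey band for changes under 2-fold. Intervals are narrowest in FGF19ΔKLB against vehicle, where 31 of 42 stay within the band, against 17 in FGF19WT against vehicle and 18 in FGF19ΔKLB against FGF19WT.

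The groups did not overlap for some members. With FGF19WT every library was above every vehicle library for 10 members, Cdc6, Mcm3, Mcm6, Rfc3, Rfc5, Rpa1, Prim1, Pold1, Pold2 and Rrm2, where 11.1% of all genes did so, and below for 1, Cdt1, against 11.8%. With FGF19ΔKLB 8 members were above vehicle in this way, Orc6, Cdc6, Mcm7, Rfc2, Pold1, Pold2, Rrm1 and Tyms, against 12.6%, and Mcm4 was below, against 12.6%. Cdc6, Pold1 and Pold2 are on both lists of higher members. No member of the FGF19ΔKLB libraries was above all FGF19WT libraries, against 7.05% of all genes, and 3, Rpa1, Pold2 and Lig1, were below them all, against 6.63%.

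The 9 tested licensing genes had a median log2 fold change of 0.50 for FGF19WT against vehicle, with 8 positive, and of 0.19 for FGF19ΔKLB against vehicle, with 7 positive. Mcm6, a subunit of the helicase ring on chromosome 1 (128331590 to 128359664), measured 4.06, 9.05 and 12.8 CPM with FGF19WT, 3.21, 5.17 and 4.13 CPM with FGF19ΔKLB, and 2.26, 3.38 and 2.67 CPM with vehicle. All FGF19WT libraries lay above all vehicle libraries, and FGF19WT libraries 2 and 3 lay above the rest. Its log2 fold change was 1.64 (95% interval 0.56 to 2.72, edgeR adjusted p = 0.278) for FGF19WT against vehicle and 0.59 (−0.03 to 1.21, adjusted p = 0.314) for FGF19ΔKLB against vehicle. Its partner Mcm5, on chromosome 8 (75109569 to 75128439), had 1.26, 5.3 and 6.34 CPM with FGF19WT, 1.26, 2.99 and 2.03 CPM with FGF19ΔKLB, and 0.934, 1.58 and 0.831 CPM with vehicle. Again FGF19WT libraries 2 and 3 were the highest, while library 1 lay inside the vehicle range. Mcm7, the most abundant ring subunit, stood at 9.3, 18.3 and 20.2 CPM with FGF19WT, 11.9, 12.3 and 11.2 CPM with FGF19ΔKLB, and 10.9, 10 and 10 CPM with vehicle. FGF19WT library 1 was the lowest of the 9 and libraries 2 and 3 the highest.

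The ring subunits did not move as a block. Mcm4 stood at 3.49, 4.17 and 2.52 CPM with FGF19WT, 2.7, 2.68 and 2.57 CPM with FGF19ΔKLB, and 3.64, 2.81 and 3.42 CPM with vehicle, and all FGF19ΔKLB libraries lay below vehicle. Mcm3 spanned 2.52 to 5.96 CPM, and neither gene had its highest values in FGF19WT libraries 2 and 3 together. Cdt1, which recruits the ring to origins, went the other way, with 1.68, 1.64 and 0.957 CPM in FGF19WT libraries, 1.5, 2.88 and 2.23 CPM in FGF19ΔKLB libraries, and 1.74, 3.07 and 1.94 CPM in vehicle libraries. All FGF19WT values of Cdt1 were below the vehicle range, with a log2 fold change of −0.65 (−1.62 to 0.32, edgeR adjusted p = 0.469). Cdc6, which loads the ring together with Cdt1, stood at 0.264, 0.358 and 0.696 CPM with FGF19WT, 0.425, 0.478 and 0.246 CPM with FGF19ΔKLB, and 0.16, 0.19 and 0.166 CPM with vehicle. The vehicle libraries were the lowest 3 of the 9, at 12 to 13 counts each, so about 3 read pairs stand behind each vehicle value. The origin recognition subunit Orc1 did not pass the filter on low counts, with 0 to 0.624 CPM, and Orc6 spanned 2.94 to 4.76 CPM.

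The 6 helicase activators had a median log2 fold change of 0.18 with FGF19WT and 0.07 with FGF19ΔKLB, each against vehicle, with 4 and 3 positive. Gins4 was the most abundant of them per length and varied least, at 12.6, 13.5 and 12.5 CPM with FGF19WT, 13, 13 and 15.5 CPM with FGF19ΔKLB, and 14.2, 12.3 and 10.9 CPM with vehicle. Its groups overlapped, and its log2 fold change of 0.05 (−0.35 to 0.45) for FGF19WT against vehicle bounds any change well inside 2-fold. Gins2, a subunit of the same GINS complex, stood at 0.659, 5.65 and 8.62 CPM with FGF19WT, 0.396, 0.463 and 0.852 CPM with FGF19ΔKLB, and 0.467, 0.864 and 2.24 CPM with vehicle. The values of FGF19WT libraries 2 and 3 exceeded all others, and library 1 lay with the vehicle libraries. The log2 fold change of Gins2 in FGF19ΔKLB against FGF19WT was −3.13 (−5.36 to −0.91, edgeR adjusted p = 0.512). On the opposite strand, 67.3% of the exon bases of Gins2 overlap Gse1, which had 1.14 and 1.55 CPM in FGF19WT libraries 2 and 3 and 10.5 to 22.4 CPM in the other 7. Whether counting used strand is not given in the sources used here.

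Mcm10, which helps start the fork, showed the reverse pattern. It stood at 28.4, 3.17 and 2.93 CPM with FGF19WT, 12.1, 13.3 and 14.2 CPM with FGF19ΔKLB, and 11, 19.4 and 16 CPM with vehicle. FGF19WT library 1 was the highest of the 9 and libraries 2 and 3 the lowest, so its log2 fold change of −0.42 in FGF19WT against vehicle had an interval of −2.60 to 1.76. Cdc45, the partner of the ring in the moving helicase, stood at 0.85, 1.78 and 1.47 CPM with FGF19WT, 0.616, 1.39 and 0.557 CPM with FGF19ΔKLB, and 0.307, 1.04 and 0.819 CPM with vehicle. Again FGF19WT libraries 2 and 3 were highest, close above FGF19ΔKLB library 2. Gins3 stood at 0.351, 1.07 and 0.769 CPM with FGF19WT, 0.572, 0.867 and 0.901 CPM with FGF19ΔKLB, and 0.614, 0.878 and 0.857 CPM with vehicle. Gins1 spanned 2.91 to 4.79 CPM over all libraries, and the groups overlapped for both.

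The 9 genes of the clamp, its loader and RPA had a median log2 fold change of 0.20 with FGF19WT and 0.08 with FGF19ΔKLB, each against vehicle. Pcna, on chromosome 2 (132249162 to 132253314), differed little. It stood at 27.7, 22.3 and 23 CPM with FGF19WT, 26.8, 27.8 and 23.1 CPM with FGF19ΔKLB, and 26, 26.5 and 26.8 CPM with vehicle. FGF19WT libraries 2 and 3 were the lowest of the 9 by a small margin, and the log2 fold change of FGF19WT against vehicle was −0.12 (−0.46 to 0.23). The large clamp loader subunit Rfc1 stood at 18.6, 16.1 and 12.2 CPM with FGF19WT, 18.6, 16.5 and 14.5 CPM with FGF19ΔKLB, and 16.8, 18.2 and 17.2 CPM with vehicle. Its groups overlapped, with a log2 fold change of −0.15 for FGF19WT against vehicle. The small subunit Rfc3 differed, with 6.24, 11.2 and 14.4 CPM in FGF19WT libraries, 5.31, 4.5 and 7.16 CPM in FGF19ΔKLB libraries, and 4.44, 5.37 and 6.23 CPM in vehicle libraries. All FGF19WT libraries exceeded all vehicle libraries, library 1 only just, and the fold change was 1.99 (log2 interval 0.17 to 1.82, edgeR adjusted p = 0.297). Rfc2, which also belongs to a checkpoint clamp loader, stood at 23.8, 22.7 and 26.9 CPM with FGF19WT, 25.7, 29.5 and 25.8 CPM with FGF19ΔKLB, and 18.3, 21.5 and 24.5 CPM with vehicle. All FGF19ΔKLB libraries of Rfc2 were above vehicle, with a log2 fold change of 0.33 (0.01 to 0.66, edgeR adjusted p = 0.28).

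The 3 subunits of RPA, which binds single-stranded DNA as a trimer, did not move together. Rpa1, the large subunit, stood at 14.9, 20.1 and 41.5 CPM with FGF19WT, 14.3, 12.3 and 9.96 CPM with FGF19ΔKLB, and 12.5, 14.7 and 12.8 CPM with vehicle. FGF19WT library 3 was over 2-fold above every other library. Rpa2 stood at 8.48, 5.81 and 4.41 CPM with FGF19WT, 6.07, 6.97 and 8.01 CPM with FGF19ΔKLB, and 7.1, 7.92 and 7.09 CPM with vehicle, so FGF19WT libraries 2 and 3 were the lowest. Rpa3 stood at 4.14, 5.54 and 4.82 CPM with FGF19WT, against 3.11 to 4.57 CPM with vehicle. The log2 fold changes of FGF19WT against vehicle were 0.94 (0.01 to 1.86) for Rpa1, −0.24 (−0.91 to 0.44) for Rpa2 and 0.32 (−0.32 to 0.96) for Rpa3, with edgeR adjusted p of 0.341, 0.682 and 0.564.

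The 8 polymerase and primase genes had a median log2 fold change of 0.58 with FGF19WT and of 0.36 with FGF19ΔKLB, each against vehicle and each with 7 positive. The 8 include Pole2, which had 0 to 31 counts per library. Its log2 fold change for FGF19WT against vehicle was −0.67 without FGF19WT library 3 and 1.19 without FGF19WT library 1. Pold2, the second subunit of the lagging strand polymerase δ, gave the smallest p of the set in both comparisons with vehicle. It lies on chromosome 11 (5872180 to 5878292) and had 10.9, 11.7 and 12.4 CPM with FGF19WT, 9.25, 10.5 and 10.2 CPM with FGF19ΔKLB, and 6.11, 6.85 and 6.86 CPM with vehicle. The means were 11.7 ± 0.752, 9.97 ± 0.648 and 6.61 ± 0.427 CPM in that order (SD, n = 3 each), and no library of one group reached another group. Its log2 fold change was 0.82 (0.42 to 1.23, edgeR adjusted p = 0.277) for FGF19WT against vehicle, 0.59 (0.26 to 0.93, adjusted p = 0.0929) for FGF19ΔKLB against vehicle and −0.24 (−0.62 to 0.15, adjusted p = 0.692) for FGF19ΔKLB against FGF19WT. None of the 3 passed. With FGF19WT libraries 2 and 3 left out the estimate for FGF19WT against vehicle was 0.72 (adjusted p = 0.381), so Pold2 was high in library 1 too. The catalytic subunit Pold1 stood at 3.1, 3.85 and 4.39 CPM with FGF19WT, 4.05, 3.26 and 3.49 CPM with FGF19ΔKLB, and 2.32, 2.66 and 2.87 CPM with vehicle. The vehicle libraries were again the lowest 3 of the 9.

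Prim1, the catalytic subunit of primase that starts each Okazaki fragment, lies on chromosome 10 (128015168 to 128030037). It had 3.73, 3.63 and 4.34 CPM in FGF19WT libraries, 3.97, 3.95 and 1.8 CPM in FGF19ΔKLB libraries, and 1.71, 1.86 and 1.65 CPM in vehicle libraries. All FGF19WT libraries were about 2-fold above vehicle, while FGF19ΔKLB library 3 lay inside the vehicle range and libraries 1 and 2 with FGF19WT. The log2 fold change was 1.17 (0.53 to 1.80, edgeR adjusted p = 0.277) for FGF19WT against vehicle. The other primase subunit, Prim2, spanned 1.98 to 3.16 CPM with overlapping groups. Pole, the catalytic subunit of the leading strand polymerase ε, stood at 1.79, 4.96 and 5.08 CPM with FGF19WT, 1.04, 2.47 and 1.59 CPM with FGF19ΔKLB, and 1.66, 2.05 and 1.43 CPM with vehicle. Library 1 of FGF19WT lay inside the vehicle range and the other 2 were above all others. Pola2, a subunit of polymerase α, stood at 8.04, 3.86 and 3.83 CPM with FGF19WT, 5.6, 6.61 and 6.7 CPM with FGF19ΔKLB, and 4.4, 6.86 and 6.05 CPM with vehicle. It was highest in FGF19WT library 1 and lowest in libraries 2 and 3, while its catalytic partner Pola1 overlapped between groups at 1.44 to 3.11 CPM.

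**Figure D4:**
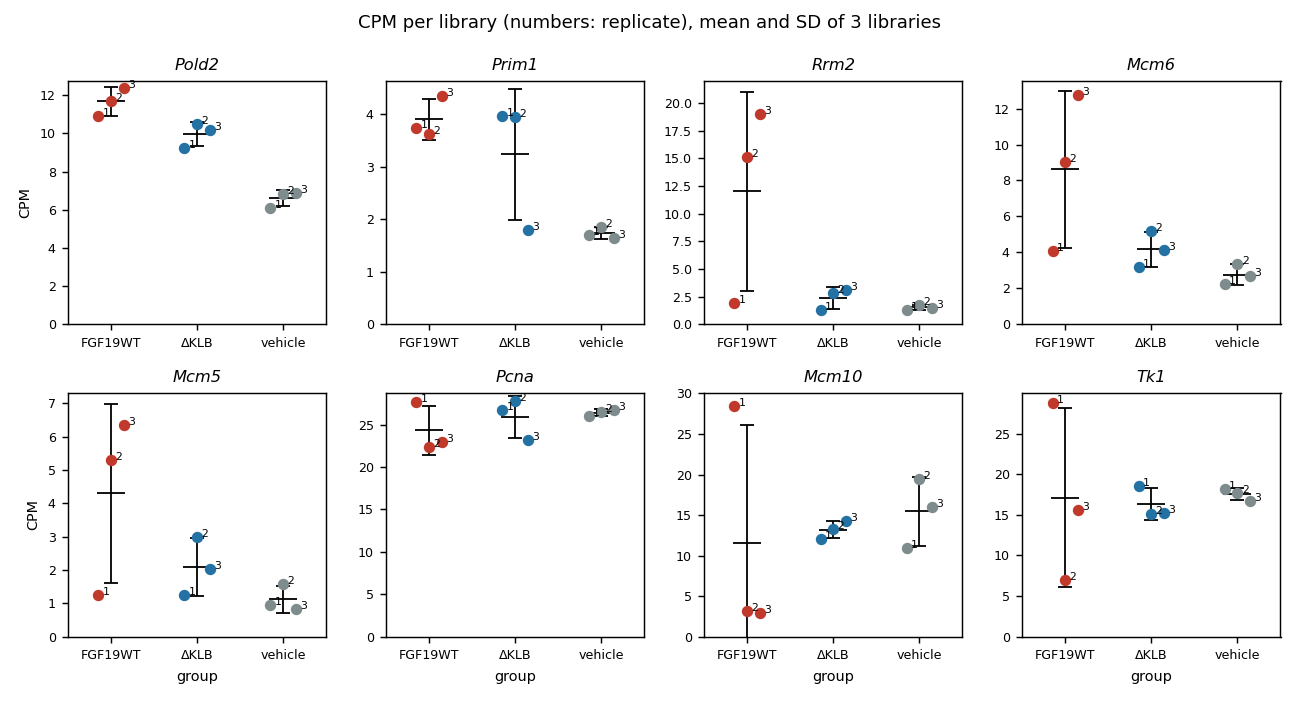
CPM of 8 genes in each library, with group means (long bars) and SDs of 3 libraries (whiskers, cut at 0 for Mcm10); digits are replicate numbers and vertical axes differ. Pold2 separates FGF19WT (10.9 to 12.4), FGF19ΔKLB (9.25 to 10.5) and vehicle (6.11 to 6.86), whereas Rrm2, Mcm6 and Mcm5 are high in FGF19WT libraries 2 and 3, and Mcm10 and Tk1 are highest in FGF19WT library 1.

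Of the enzymes that finish the lagging strand, Lig1, the ligase, stood at 5.55, 6.87 and 7.64 CPM with FGF19WT, 4.96, 5.47 and 5.31 CPM with FGF19ΔKLB, and 3.4, 5.94 and 3.76 CPM with vehicle. The FGF19WT libraries lay above all FGF19ΔKLB libraries but 1 vehicle library lay among them. The flap nuclease Fen1 stood at 3.31, 6.34 and 4.82 CPM with FGF19WT, 3.64, 3.92 and 4.41 CPM with FGF19ΔKLB, and 2.91, 3.95 and 3.43 CPM with vehicle. On the opposite strand, 78.8% of the exon bases of Fen1 overlap the predicted gene Gm10143, which had 154 counts over the 9 libraries against 2607 for Fen1, and 5.37% overlap Tmem258, which had 20289 counts. Lig1 and Fen1 were both highest in FGF19WT libraries 2 and 3. The log2 fold changes of FGF19WT against vehicle were 0.62 (−0.10 to 1.33) for Lig1 and 0.50 (−0.27 to 1.27) for Fen1.

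Ribonucleotide reductase makes deoxynucleotides with a large subunit, Rrm1, and a small subunit, Rrm2, whose level is known to rise in S phase. Rrm2, on chromosome 12 (24708241 to 24714146), had 1.89, 15.1 and 19 CPM with FGF19WT, 1.26, 2.81 and 3.08 CPM with FGF19ΔKLB, and 1.33, 1.76 and 1.48 CPM with vehicle. The highest values by a wide margin were those of FGF19WT libraries 2 and 3, and library 1 lay just above vehicle. Its log2 fold change was 2.98 (1.06 to 4.91, edgeR adjusted p = 0.278) for FGF19WT against vehicle, 0.64 (−0.23 to 1.51, adjusted p = 0.43) for FGF19ΔKLB against vehicle and −2.34 (−4.34 to −0.34, adjusted p = 0.527) for FGF19ΔKLB against FGF19WT. Left without FGF19WT libraries 2 and 3, the last estimate turned to 0.33 (adjusted p = 0.978). Rrm1 stayed between 8.71 and 10.4 CPM in all 9 libraries, 1.19-fold from lowest to highest. Per length, Rrm2 stood at 5.72 and 6.53 FPKM in FGF19WT libraries 2 and 3, above Rrm1 at 0.988 and 0.891 FPKM, and at 0.45 to 0.572 FPKM in vehicle libraries, below Rrm1 at 0.756 to 0.78 FPKM.

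Tyms, which makes thymidylate, stood at 4.67, 8.35 and 11 CPM with FGF19WT, 6.23, 7.47 and 8.65 CPM with FGF19ΔKLB, and 5.22, 5.47 and 5.03 CPM with vehicle. All FGF19ΔKLB libraries were above vehicle, with a log2 fold change of 0.50 (0.09 to 0.92, edgeR adjusted p = 0.217), while FGF19WT library 1 was below it. Tk1, the salvage kinase for thymidine, stood at 28.8, 6.92 and 15.6 CPM with FGF19WT, 18.6, 15.2 and 15.2 CPM with FGF19ΔKLB, and 18.2, 17.7 and 16.7 CPM with vehicle. FGF19WT library 1 was the highest and library 2 the lowest of the 9. Of the exon bases of Tk1, 1.6% overlap Afmid on the opposite strand, which had 17.3 and 19.5 CPM in FGF19WT libraries 2 and 3 and 43.4 to 202 CPM in the other 7. Other members overlap genes of higher counts on the opposite strand. The shares of exon bases were 12.7% for Rfc4 with Eif4a2, 10.7% for Rfc5 with Wsb2 and 7.25% for Mcm7 with Ap4m1. They were 6.93% for Orc6 with Vps35, 5.96% for Cdc45 with Ufd1, 5.79% for Lig1 with Zswim9 and 1.45% for Mcm7 with Cops6. The part of such overlaps in the counts was not tested.

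Of the genes that rebuild chromatin behind the fork, Dnmt1, the maintenance methyltransferase, stood at 9.77, 9.71 and 8.41 CPM with FGF19WT, 9.56, 9.61 and 9.11 CPM with FGF19ΔKLB, and 7.3, 9.37 and 10.2 CPM with vehicle. The groups overlapped, with a log2 fold change of 0.06 (−0.42 to 0.54) for FGF19WT against vehicle. Its recruiting partner Uhrf1 stood at 0.278, 1.8 and 3 CPM with FGF19WT, 0.0587, 0.912 and 0.377 CPM with FGF19ΔKLB, and 0.0534, 0.849 and 0.179 CPM with vehicle. FGF19WT libraries 2 and 3 were highest, and vehicle library 1 had 4 counts. The log2 fold change of FGF19WT against vehicle was 2.24, with an interval of −0.65 to 5.13. The large subunit of the histone chaperone CAF-1, Chaf1a, stood at 2.87, 3.19 and 2.12 CPM with FGF19WT, 1.91, 2.69 and 2.59 CPM with FGF19ΔKLB, and 2.83, 2.47 and 3.31 CPM with vehicle. It and its partner Chaf1b, at 0.534 to 2.23 CPM, overlapped between groups. On the opposite strand, 52.5% of the exon bases of Chaf1a overlap Ubxn6, which was at 22.7 to 29.5 CPM.

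Across the set, FGF19WT library 3 was the highest of the 9 for 19 members and library 2 for 8, while vehicle library 1 was the lowest for 17 and FGF19WT library 3 for 8. The same counts were not made over all genes, so they are not read as a trait of these members. Both FGF19WT libraries 2 and 3 lay above the other 7 for 16 of 42 members, where 18.4% of all genes did so: Mcm2, Mcm5, Mcm6, Mcm7, Cdc45, Gins2, Rfc3, Rpa1, Rpa3, Pole, Pold2, Fen1, Lig1, Rrm1, Rrm2 and Uhrf1. They lay below for 4, Mcm10, Pcna, Rpa2 and Pola2, against 19%. FGF19WT library 1 lay above all vehicle libraries for 19 of 42 members, against 28.3% of all genes, and below for 4, against 27.2%. Of the 16 members high in both libraries, 14 had a matched promoter and 6 of these held the E2F letters, against 9 of the other 22.

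Leaving out FGF19WT library 1 changed the outcome. The FGF19WT group then holds only libraries 2 and 3, which stood apart from all others on the first principal component. Adjusted p of these fits therefore describe those 2 libraries and do not cover library 1. FGF19WT against vehicle then called 11 of 42 members higher, where 12.4% of all genes were called higher: Mcm5, Mcm6, Mcm7, Gins2, Rfc3, Rpa1, Prim1, Pole, Pold2, Rrm2 and Tyms. It called 1 lower, Mcm10, where 13.1% of all genes were called lower. Rrm2 had a log2 fold change of 3.48 (edgeR adjusted p = 0.000591), Mcm5 one of 2.38 (adjusted p = 0.00748) and Mcm10 one of −2.34 (adjusted p = 0.00398). FGF19ΔKLB against FGF19WT then called 6 members lower, Mcm6, Mcm7, Gins2, Rfc3, Rpa1 and Rrm2, against 7.9% of all genes, and Mcm10 higher, against 7.85%. With FGF19WT libraries 2 and 3 left out instead, 0 of 42 members were called in either comparison, where FGF19WT against vehicle called 0.1% and FGF19ΔKLB against FGF19WT 0.0352% of all genes. In that fit the 1 FGF19WT library is assumed to vary like the other groups, and the median of the members was 0.15 for FGF19WT against vehicle and 0.01 for FGF19ΔKLB against FGF19WT.

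Genes that work beside the members were read from lists chosen with earlier results of these data known. Of 33 tested genes of other licensing, firing and fork factors, 19 had positive changes with FGF19WT against vehicle, with a median log2 of 0.08. EdgeR called 0 of them, 4 had an unadjusted p under 0.05, and DESeq2 called 2. Over all genes of this comparison 14.5% had such a p, edgeR called 0.00574% and DESeq2 called 6.38%. Of 32 tested genes of other nucleotide synthesis 13 were positive, with a median of −0.06. Both tools called 0 of these, and 4 had an unadjusted p under 0.05 by edgeR. Their summed level was 1537, 1156 and 1241 CPM with FGF19WT, 1481, 1482 and 1532 CPM with FGF19ΔKLB, and 1439, 1569 and 1468 CPM with vehicle. FGF19WT libraries 2 and 3 were the lowest of the 9. CTP synthase Ctps2 stood at 13.2, 17.4 and 24.6 CPM with FGF19WT, 13.7, 14.7 and 16.1 CPM with FGF19ΔKLB, and 9.25, 10.4 and 10.3 CPM with vehicle, so that both treated groups lay above vehicle (edgeR adjusted p = 0.278 and 0.0825). Of 19 E2F factors and S phase cyclins 13 were positive, with a median of 0.20, 0 called by edgeR, 1 with an unadjusted p under 0.05 and 1 called by DESeq2. In FGF19ΔKLB against vehicle these 3 lists had medians of 0.12, 0.04 and 0.03. EdgeR called 0 genes of them, with 4, 7 and 4 at an unadjusted p under 0.05, and DESeq2 called 1, 2 and 1. Over all genes 17.3% had such a p here, edgeR called 1.68% and DESeq2 called 8.46%. The factors E2f8, E2f1 and E2f3 were lower, at 0.363-fold, 0.474-fold and 0.633-fold (edgeR adjusted p = 0.0756, 0.262 and 0.249). The cyclin Ccna2 was higher, at 2.4-fold (edgeR adjusted p = 0.256).

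Histone and chromatin genes of S phase had positive changes in 13 of 13 with FGF19WT, with a median log2 of 0.64, and in 9 of 13 with FGF19ΔKLB, with a median of 0.30. Their summed level was 113.2, 161.8 and 177.4 CPM with FGF19WT, 108.4, 113.5 and 99.7 CPM with FGF19ΔKLB, and 90.7, 103.3 and 97.2 CPM with vehicle, so FGF19WT libraries 2 and 3 stood well above library 1. Both tools called 0 of them in either comparison, and 5 and 1 had an unadjusted p under 0.05 by edgeR, where 14.5% and 17.3% of all genes did. Mitosis genes had larger estimates. All 22 tested had positive changes with FGF19WT, with a median log2 of 3.79, and 22 had an unadjusted p under 0.05, of which edgeR called 0 and DESeq2 22. Over all genes 14.5% had such a p, and DESeq2 called 6.38%. The summed level of the 24 listed was 23.4, 210 and 266 CPM in FGF19WT libraries, 16.2, 33.6 and 42.9 CPM in FGF19ΔKLB libraries, and 12.0, 12.9 and 12.2 CPM in vehicle libraries. The 43 replication genes summed to 293.8, 300.8 and 346.7 CPM with FGF19WT, 261.5, 279 and 260.2 CPM with FGF19ΔKLB, and 227.9, 261.7 and 248.9 CPM with vehicle. This sum hides opposite changes in FGF19WT libraries 2 and 3, which lay above the other 7 for 16 of 42 members and below for 4. Rrm2 reached 15.1 and 19 CPM there, against at most 1.76 CPM with vehicle. Mcm10 fell to 3.17 and 2.93 CPM, against 11 to 19.4 CPM with vehicle. In FGF19ΔKLB against vehicle 23 of 23 tested mitosis genes were positive, with a median of 1.09. EdgeR called 1 of them, where it called 1.68% of all genes. The gene called was the proliferation marker Mki67. It stood at 5.87, 6.07 and 6.13 CPM with FGF19ΔKLB, against 0.908, 1.48 and 0.703 CPM with vehicle (edgeR adjusted p = 0.018), while no member was called in those libraries. In the fit over 9 libraries Mki67 was not called.

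**Figure D5:**
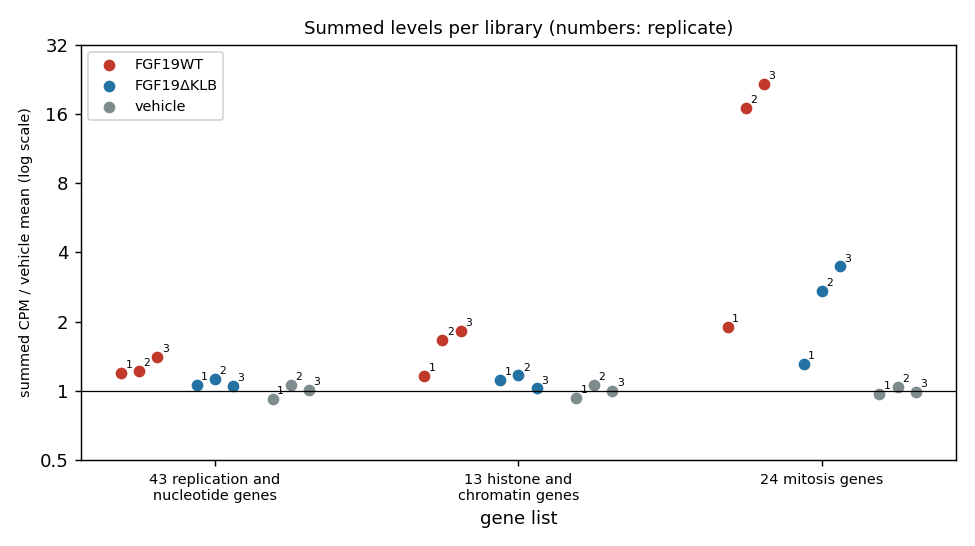
Summed CPM of 3 gene lists per library divided by the vehicle mean of that list (log axis), with digits for replicate numbers. The 43 replication genes stay between 0.926 and 1.41 as a sum, which hides opposite changes of single members. The 13 histone and chromatin genes reach 1.83, and the 24 mitosis genes reach 17.0 and 21.6 in FGF19WT libraries 2 and 3.

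Cell type markers moved in the same libraries. Summed CPM of 8 Kupffer cell markers was 188, 44.5 and 16.3 in FGF19WT libraries, 166 to 197 in FGF19ΔKLB libraries and 173 to 267 in vehicle libraries. Of these Timd4 and Marco were near 0 in FGF19WT libraries 2 and 3. Markers of sinusoidal endothelium, at 128, 22.1 and 10.7 CPM with FGF19WT against 106 to 121 with vehicle, were lowest in the same libraries, as were those of B and plasma cells at 18.3, 4.72 and 3.25 against 96.0 to 239, and of T and NK cells at 5.10, 1.78 and 2.18 against 7.54 to 16.9. With FGF19ΔKLB these 3 lists stood at 57.3 to 87.7, 24.3 to 51.8 and 2.34 to 4.13 CPM. Markers of neutrophils and their precursors, which cycle in marrow, stood at 2.61 to 8.64 CPM with FGF19WT and 3.4 to 32.3 CPM with vehicle, and reached 205 CPM in FGF19ΔKLB library 2. Erythroid markers stood at 178, 511 and 799.7 CPM with FGF19WT, 438, 197 and 1773 CPM with FGF19ΔKLB, and 339 to 484 CPM with vehicle. Of these the globin Hba-a1 was at 48.4, 161 and 222.1 CPM with FGF19WT, against 85.5 to 119.5 CPM with vehicle. Alas2 went the other way, at 16.3 to 23.9 CPM with FGF19WT against 41.8 to 70.8 CPM with vehicle. Stellate cell markers stood at 196 to 230, 106 to 218 and 256 to 294 CPM, and cholangiocyte markers at 36.4 to 76.1, 29.0 to 62.9 and 50.2 to 63.6 CPM, in FGF19WT, FGF19ΔKLB and vehicle libraries. These 2 sums hide opposite changes in FGF19WT libraries 2 and 3. Of the stellate list, Reln reached 174.7 and 211.6 CPM there, against 36.2 to 44.5 CPM with vehicle. Dcn, at 5.03 and 0.769 CPM against 156.3 to 186.2 CPM, Lrat and Pdgfrb lay below every vehicle library. Of the cholangiocyte list, Prom1 reached 41.3 and 20.4 CPM, against 0.22 to 1.52 CPM with vehicle, while Spp1 and Sox9 lay below every vehicle library. The 8 hepatocyte markers summed to 204600, 96730 and 106400 CPM with FGF19WT, 207700 to 294800 CPM with FGF19ΔKLB and 104300 to 162600 CPM with vehicle, with Alb alone at 8.6% to 21.1% of all counts. In FGF19WT libraries 2 and 3 Alb made up 78660 and 81810 CPM of the sum. Apoa1 was above every vehicle library there, at 11090 and 17770 CPM against 5188 to 9287 CPM. Serpina1c, at 1167 and 995.1 CPM against 3586 to 3793 CPM, lay below every vehicle library, as did Fgb, Apob and Cps1. The part of these shifts in the levels of the replication genes was not tested.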

How the data were processed

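Liver RNA of 9 libraries, 3 per group, was measured by RNA sequencing. For every gene and library the authors deposited an expected count and its FPKM. Bowtie 0.12.2, HISAT2 2.0 and StringTie 1.3.0 and the build mm8 are named, per the submitters' processing notes, without their roles, and strand use is not given in the sources used here. All 28517 gene identifiers, chromosomes and starts matched GENCODE M21, so positions are on GRCm38. The counts are whole numbers. Multiples of 4 were 3.74 to 4.29 times as common among low counts as the numbers beside them, and 4 counts were taken as 1 read pair.

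Each comparison was fitted across all genes with edgeR 4.0.16 in R 4.3.3 (quasi-likelihood, robust, TMM factors, edgeR's filter on low counts) over the 6 libraries of its groups, since FGF19WT libraries 2 and 3 stand apart. Calls are at a Benjamini-Hochberg adjusted p under 0.05, and CPM values use TMM factors over 9 libraries. Alternatives were the fit over 9 libraries, other filters, DESeq2 1.42.0, limma 3.58.1 on FPKM, counts divided by 4, a replicate block and libraries left out. The procedure was tested on simulated data in which the libraries of a group vary independently. A group with libraries set apart together, like FGF19WT libraries 2 and 3, was not simulated. The members, lists and this design were chosen with earlier results of these data known. Values in every library are given for the most abundant member and the member with the smallest p of each role, and for members that differ from most of their role. Any other member may be named. Counting error alone stands behind the limit of 12 counts.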

Additional observations from a re-analysis of the deposited data

How the results depend on the processing

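No pairing of same-numbered libraries was evident, since their deviations from group means correlated at −0.048 to 0.147. With 3 libraries per mean these correlations cannot exclude pairing. With the replicate block 0, 103 and 0 genes were called in FGF19WT against vehicle, FGF19ΔKLB against vehicle and FGF19ΔKLB against FGF19WT, with 0 members in each. In the same order of comparisons, the fit over 9 libraries called 20, 2 and 0 genes with 0 members, and DESeq2 called 1102, 1378 and 533 genes with 4, 1 and 1 members. Leaving out FGF19WT libraries 2 and 3 gave 20 genes in FGF19WT against vehicle and 7 in FGF19ΔKLB against FGF19WT. On log2(FPKM + 1) and log2(FPKM + 0.1) FGF19WT against vehicle called 16 and 7 genes, and the median of all genes in FGF19ΔKLB against FGF19WT moved to −0.15 and −0.18. Leaving out 1 library at a time, the calls ran over 0 to 4697, 44 to 276 and 0 to 2843 genes, with 0 to 11, 0 to 0 and 0 to 1 members higher and 0 to 1, 0 to 0 and 0 to 6 lower. The highest counts came without FGF19WT library 1 in the comparisons that hold it.

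Of 297 log2 fold changes of named members under the alternatives, 278 kept their direction and their side of the threshold, 14 passed it and 5 turned. All 5 turned with FGF19WT libraries 2 and 3 left out: Gins2 to −0.85 and Uhrf1 to −0.37 in FGF19WT against vehicle, and Mcm6 to 0.036, Rrm2 to 0.33 and Uhrf1 to 0.68 in FGF19ΔKLB against FGF19WT. Why settings differ was not tested. With the first T of the E2F letters dropped, 25 of 36 members matched, against 16.2% of genes. Depth limits Orc1, Pole2, Cdc6 and Uhrf1, which have few read pairs per library.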
